A study of Mus musculus with 4 samples.

Results

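Rhox and trophoblast genes are a set of 8 genes picked by name from 39179 genes counted in 4 individual chimeric mouse embryos: the homeobox genes Rhox5, Rhox6 and Rhox9, the trophoblast transcription factor genes Elf5, Ascl2 and Gcm1, and Plac1 and Krt7, which encode a trophoblast protein and a keratin. All 8 are in the count files, and 6 of them passed the filter on low counts. In 2 embryos the embryonic stem cells (ESCs) carried a doxycycline-inducible FLAG-Lhx1, a tagged form of the LIM homeodomain transcription factor LHX1, and in the other 2 they carried FLAG-Lhx1-mt, an altered form whose name is also written with Δ. The sources used here do not give which portion of LHX1 was altered. In both groups ESCs grown in 2i medium were injected into 8-cell host embryos of an ARC x RLZRFP cross. The mothers of both groups received doxycycline (2 mg/mL, with 5% sucrose) in the drinking water for 24 hours before collection. Collection was at E8.5, but development lagged and the embryos are staged as E7.75; their ESC contribution was checked. Both groups received the drug, so there is no uninduced embryo among them, and every sample is a mixture of ESC descendants and host cells.

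Trophoblast is the outer lineage of the mouse conceptus, which forms the extraembryonic ectoderm, the ectoplacental cone and later the placenta, while the epiblast forms the embryo proper. ESCs injected into early embryos settle mostly in the epiblast, and the host supplies most of the trophoblast and of the visceral endoderm, the epithelium around the epiblast. The Rhox genes form a homeobox cluster on the X chromosome, named for expression in reproductive tissues. Rhox5, first known as Pem, is known from trophoblast, visceral and parietal endoderm, ESCs and testis, and Rhox6 and Rhox9 are known from placenta and germ cells. The sources used here do not say how much extraembryonic tissue was kept at dissection. In a bulk sample, fewer cells of a type and less RNA per cell cannot be told apart.

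Total counts were 21267116 to 30434442 per embryo, so that 3 counts, the upper limit that a count of 0 allows, correspond to 0.0957 to 0.152 CPM after scaling (each count as a share of its library in parts per 1e+06, scaled by TMM, edgeR's trimmed mean method). Floors and the intervals of pooled rates cover counting error only, and no molecular identifiers are named for these libraries; the intervals of log2 folds come from edgeR's SE and include the spread between embryos. Genes of the embryo proper were present in all 4 embryos: T, which encodes brachyury, was at 103 to 239 CPM and Otx2, a gene of the epiblast and head, at 56.0 to 83.0 CPM. Genes of the ectoplacental cone and trophoblast giant cells were uneven. Phlda2 was at 806 to 1682 CPM, Plac8 at 10.8 to 17.0 CPM and Hand1, a factor needed for giant cells, at 3.16 to 4.59 CPM, while the more restricted genes were near the floor. Tpbpb was at 0 in every embryo, Tpbpa had 0 to 7 counts, and Prl3d1, a placental lactogen gene of giant cells, had 1 to 4 counts. Phlda2, Plac8 and Hand1 are also expressed outside trophoblast.

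Rhox5 was lower in FLAG-Lhx1 than in FLAG-Lhx1-mt embryos, and it was the single member that passed the test. Plac1 and Krt7 also had lower values in both FLAG-Lhx1 embryos, with folds of like size that missed the threshold. Rhox6, Elf5 and Ascl2 did not pass, and Rhox9 and Gcm1 had too few counts to be tested. A gene was called when the p of edgeR's quasi-likelihood F test, adjusted by Benjamini-Hochberg across the whole table, was below 0.05. By that rule 1 of 6 tested members was called, and it was lower in FLAG-Lhx1. Over all 15822 tested genes 6.17% were called, 3.55% as lower and 2.62% as higher, so the share of members called rests on a single gene. An unadjusted p under 0.05 was found for 3 of the 6 (Rhox5, Plac1 and Krt7) and for 21.3% of all tested genes. Where 1 embryo is left out, its group has a single embryo, which is assumed to vary like the other group. Leaving out FLAG-Lhx1 replicate 1 left no member called, with 3.73% of all genes called. Leaving out FLAG-Lhx1-mt replicate 2 called both Rhox5 and Plac1, with 9.16% called, and the shares for the other 2 embryos were 9.56% (FLAG-Lhx1-mt replicate 1) and 3.1% (FLAG-Lhx1 replicate 2). With other normalizations and tests the share of all genes called was 6.68% (RLE size factors), 5.48% (upper quartile), 9.42% (DESeq2), 6.44% (limma-voom) and 7.1% (newer quasi-likelihood form). It was 4.41% with no count filter, 5.21% with offsets for length and GC content, 7.19% with the replicate number as a block and 6.15% with block and offsets together.

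The 8 genes covered a wide range of levels (the plot of each gene in each embryo). Per kilobase of exon, the mean over the 4 embryos was 173 CPM for Rhox5, 8.05 for Plac1, 2.56 for Rhox6, 1.14 for Krt7 and 0.655 for Ascl2. It was 0.0846 for Rhox9, 0.0684 for Elf5 and 0.0650 for Gcm1. The first 5 of these genes kept this order in each embryo, and the last 3 overlapped in their values and were not separable at this depth. Krt7 has 7049 annotated exon bases but a longest transcript of 4094, so its level per kilobase is sensitive to the gene model. By mean CPM, Rhox5 ranked 1382 of the 15822 tested genes, Plac1 ranked 7144 and Elf5 ranked 15375.

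**Figure D1:**
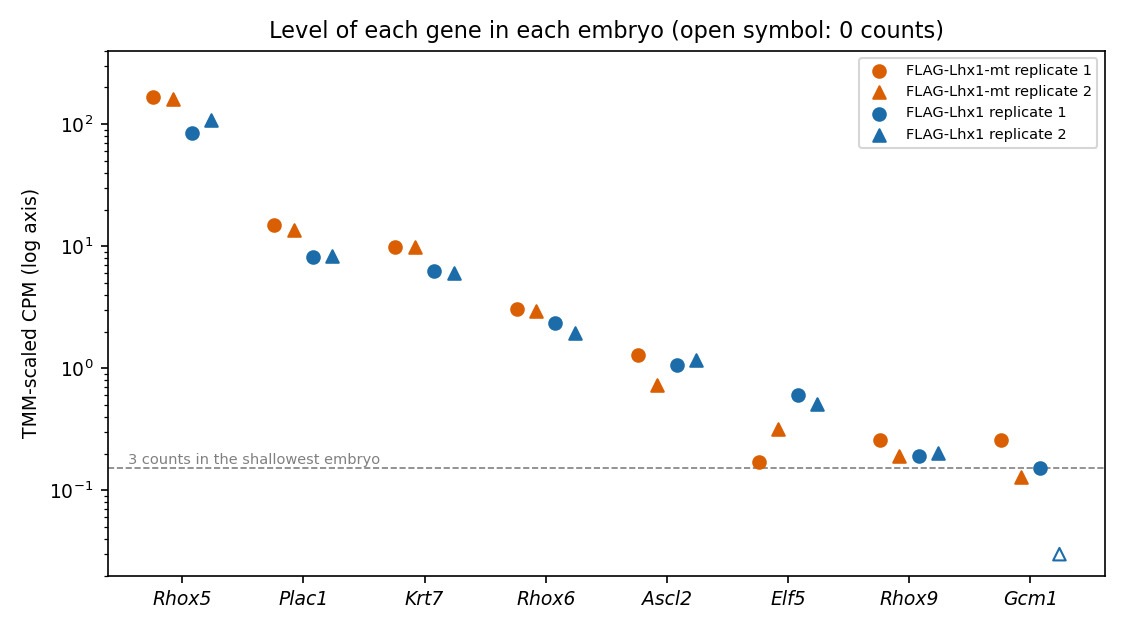
Level of each of the 8 genes in each embryo, in TMM-scaled CPM on a log axis; colour marks the group, shape the replicate, the dashed line 3 counts in the embryo with the highest floor (0.152 CPM), and the open symbol 0 counts. Rhox5 lies between 85.5 and 167 CPM, Plac1, Krt7 and Rhox6 are lower in both FLAG-Lhx1 embryos, and Rhox9 and Gcm1 lie near the floor.

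Rhox5 (ENSMUSG00000095180) lies on the X chromosome at 37804842 to 37808876 of GRCm38, on the plus strand. It had 3898 and 5048 counts in FLAG-Lhx1-mt replicates 1 and 2 and 2245 and 2146 counts in FLAG-Lhx1 replicates 1 and 2. In CPM this was 167 and 161 in FLAG-Lhx1-mt, and 85.5 and 109 in FLAG-Lhx1. Both FLAG-Lhx1 embryos were below both FLAG-Lhx1-mt embryos, and the FLAG-Lhx1 embryos differed more from each other (by 23.4 CPM) than the FLAG-Lhx1-mt embryos did (by 6.16 CPM). The means were 97.3 ± 16.6 CPM and 164 ± 4.35 CPM (SD, n = 2 each), a level 1.69 times as high in FLAG-Lhx1-mt. The log2 fold, FLAG-Lhx1 minus FLAG-Lhx1-mt, was -0.76 ± 0.15 (SE, edgeR adjusted p = 0.00954), with a 95% interval of -1.08 to -0.43. Leaving out FLAG-Lhx1 replicate 1, the embryo with the lowest level, ended the call (log2 fold -0.62, edgeR adjusted p = 0.0822); it stood in the other 12 alternatives. With offsets for transcript length and GC content, which matter for a gene with 754 exon bases, it was -0.63 (adjusted p = 0.0182). Among all tested genes 7.13% had a lower fold than Rhox5.

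Rhox6 (ENSMUSG00000006200, X chromosome at 37826910 to 37829857) was expressed at a far lower level than its neighbour Rhox5. The 2 FLAG-Lhx1-mt embryos had 72 and 93 counts (3.09 and 2.97 CPM) and the 2 FLAG-Lhx1 embryos 62 and 38 counts (2.36 and 1.93 CPM). The groups did not overlap, but the difference was not called (log2 fold -0.49 ± 0.37, SE; edgeR gave an adjusted p of 0.492). Its 95% interval of -1.29 to 0.31 spans both directions. Rhox9 (ENSMUSG00000068048, X chromosome at 37899097 to 37901770, on the minus strand) had 6 and 6 counts in FLAG-Lhx1-mt and 5 and 4 in FLAG-Lhx1. The groups overlapped, and the ratio of the pooled rates of FLAG-Lhx1 to FLAG-Lhx1-mt was 0.892, with an exact Clopper-Pearson 95% interval of 0.332 to 2.31. Rhox6 and Rhox9 are close relatives, and 6.81% of the 100-base windows of Rhox6 transcripts, or 16.6% of the 50-base windows, also occur in Rhox9, so some reads may have been split between them or left uncounted. No 50-base window of Rhox5 occurs in another annotated transcript.

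The rest of the Rhox cluster had very few counts. Of 30 listed genes 29 were in the files and none passed the count filter; together they had 17 and 36 counts in FLAG-Lhx1-mt replicates 1 and 2 and 41 and 37 in FLAG-Lhx1. Rhox2b, Rhox3a, Rhox3h and Rhox8 were at 0 in all 4 embryos. The 2 genes with at least 10 counts in all were Rhox4c, with 0 and 5 counts in FLAG-Lhx1-mt and 4 and 2 in FLAG-Lhx1, and Rhox13, with 2 and 2 in FLAG-Lhx1-mt and 3 and 17 in FLAG-Lhx1. Rhox13 was thus highest in FLAG-Lhx1 replicate 2. The Rhox2, Rhox3 and Rhox4 genes are copies of unequal likeness: the share of 100-base windows that also occur in other genes ran from 10.7% for Rhox2h to 94.8% for Rhox3a. The sources used here do not say how reads that fit several copies were treated, so the counts of the most alike copies are uncertain.

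Plac1 (ENSMUSG00000061082) lies on the X chromosome at 53069995 to 53240111, outside the Rhox cluster, and encodes a trophoblast protein needed for normal placental growth. The FLAG-Lhx1-mt embryos were at 14.9 and 13.5 CPM (347 and 424 counts) and the FLAG-Lhx1 embryos at 8.23 and 8.28 CPM (216 and 163 counts). The 2 FLAG-Lhx1 embryos were almost level with each other and under both FLAG-Lhx1-mt embryos. The log2 fold was -0.78 ± 0.23 (SE, edgeR adjusted p = 0.0533), a 95% interval of -1.26 to -0.30, and just missed the threshold. It passed the threshold with RLE size factors (adjusted p = 0.0494), DESeq2 (0.0268), the newer form of edgeR's test (0.0437) and no count filter (0.0278). The no-filter fit did not use the gene's own spread between embryos. Plac1 missed the threshold with upper-quartile normalization (0.0715), limma-voom (0.0556), length and GC offsets (0.0963), the replicate block (0.0702) and block with offsets (0.123). Without FLAG-Lhx1-mt replicate 2 its log2 fold was -0.86, and over all alternatives it ran from -0.86 to -0.65.

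Krt7 (ENSMUSG00000023039, chromosome 15 at 101411043 to 101430313) encodes keratin 7, an intermediate filament protein of trophoblast and other simple epithelia. The FLAG-Lhx1-mt embryos were at 9.91 and 9.92 CPM (231 and 311 counts) and the FLAG-Lhx1 embryos at 6.32 and 6.09 CPM (166 and 120 counts). Replicates of each group were close and the groups did not overlap. The log2 fold of -0.67 ± 0.25 (SE, edgeR adjusted p = 0.127) was not called here or in any alternative (adjusted p from 0.0879 to 0.437), and its 95% interval was -1.20 to -0.15. Another gene on the other strand covers 1.09% of its exon bases.

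The folds of the other keratins of simple epithelia were nearer to 0; the difference from Krt7 was not tested. Krt8 was at 233 and 215 CPM in FLAG-Lhx1-mt and 231 and 202 CPM in FLAG-Lhx1 (log2 fold -0.05). Of the 3 tested keratins of the list (Krt8, Krt18 and Krt19) edgeR called none and none had an unadjusted p under 0.05, with a median log2 fold of -0.18 against 0.0089 over all tested genes. The smallest p-values were those of Krt18 (-0.27 ± 0.15, SE, edgeR adjusted p = 0.326) and Krt19 (-0.18 ± 0.21, adjusted p = 0.682). With the length and GC offsets the median was -0.0063. Krt20 and Krt80 had too few counts to be tested. DESeq2 and limma-voom also called none of these keratins, of the ectoplacental cone list or of the X inactivation and Y-linked list.

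The 3 transcription factor genes of the set had low counts, with Elf5 and Gcm1 close to the floor. Elf5 (ENSMUSG00000027186, chromosome 2 at 103411688 to 103450989) encodes an ETS factor that maintains trophoblast stem cells. It had 4 and 10 counts in FLAG-Lhx1-mt replicates 1 and 2 and 16 and 10 in FLAG-Lhx1 replicates 1 and 2, or 0.172, 0.319, 0.610 and 0.508 CPM. The groups did not overlap and the FLAG-Lhx1 embryos were higher, opposite in sign to Rhox5, but the log2 fold of 1.15 ± 0.76 was not called (SE, edgeR adjusted p = 0.415; 95% interval -0.46 to 2.76). The filter asks for 0.414 CPM before scaling in at least 2 embryos, which Elf5 met in the FLAG-Lhx1 embryos and not in the others, so it entered the test through the group in which it is higher.

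Ascl2 (ENSMUSG00000009248, chromosome 7 at 142966829 to 142969264) encodes a basic helix-loop-helix factor of the ectoplacental cone and spongiotrophoblast and is expressed from the maternal allele. The FLAG-Lhx1-mt embryos were at 1.29 and 0.734 CPM (30 and 23 counts) and the FLAG-Lhx1 embryos at 1.07 and 1.17 CPM (28 and 23 counts). The FLAG-Lhx1 values lay inside the span of the FLAG-Lhx1-mt values. Its log2 fold was 0.16 ± 0.55 (SE, edgeR adjusted p = 0.907; 95% interval -1.01 to 1.33), and it turned to -0.22 without FLAG-Lhx1-mt replicate 2.

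Gcm1 (ENSMUSG00000023333, chromosome 9 at 78051924 to 78065624), whose product drives syncytiotrophoblast formation in the labyrinth, had 6 and 4 counts in FLAG-Lhx1-mt and 4 and 0 in FLAG-Lhx1. The count of 0 in FLAG-Lhx1 replicate 2 allows up to 0.152 CPM. The ratio of the pooled rates of FLAG-Lhx1 to FLAG-Lhx1-mt was 0.476 (exact Clopper-Pearson 95% interval 0.109 to 1.65), so a difference was not detectable at this depth.

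**Figure D2:**
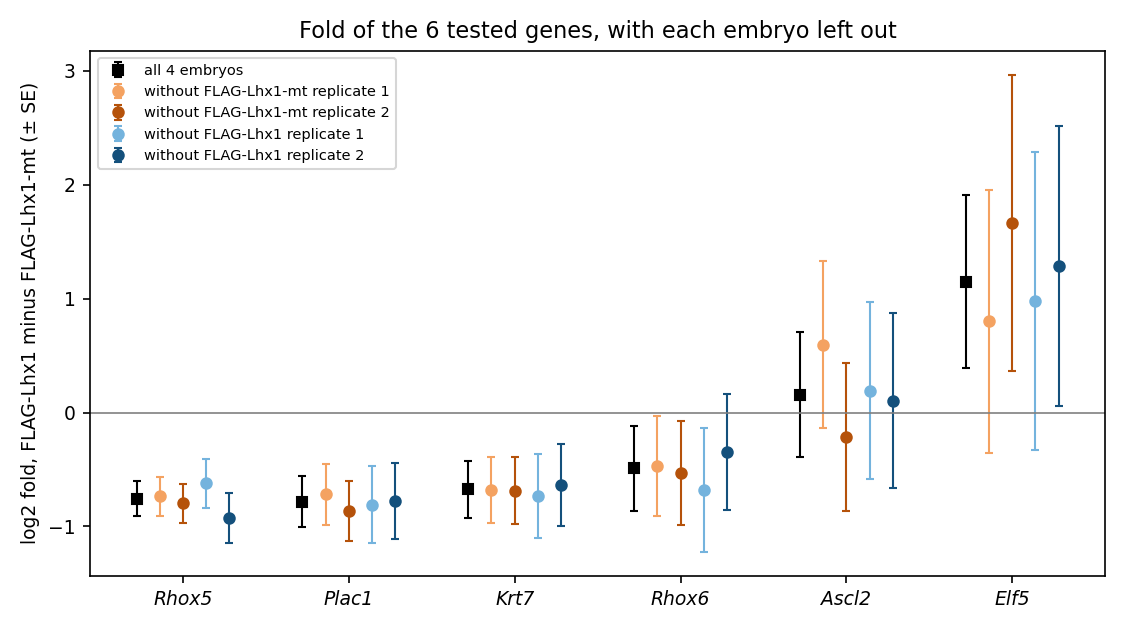
Log2 fold, FLAG-Lhx1 minus FLAG-Lhx1-mt, with its SE, for the 6 tested genes; black squares use all 4 embryos and circles leave out 1 embryo. The folds of Rhox5, Plac1, Krt7 and Rhox6 stay below 0 in each of these fits, between -0.93 and -0.34, and that of Ascl2 turns from 0.16 to -0.22 without FLAG-Lhx1-mt replicate 2.

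Across the members, 4 of the 6 tested had a fold below 0, against 49.1% of all tested genes, and their median log2 fold was -0.58 against 0.0089. In 5 of 6 the groups did not overlap, 4 of them with FLAG-Lhx1 lower; among all tested genes 52.2% did not overlap and 25.8% did so with FLAG-Lhx1 lower. These counts describe a short list that was chosen by name with earlier results of these data known. They include Elf5, which entered the test through the group in which it is higher. The profile over the 4 embryos was nearest between Plac1 and Krt7 (Euclidean distance of centred log2 CPM 0.152), followed by Krt7 and Rhox6 (0.246) and Rhox5 and Plac1 (0.248). Elf5 was the farthest from Rhox5 (1.89). Among 8764 protein-coding genes with a mean of 5 CPM or more, those nearest to Rhox5 by the same distance over the 4 embryos were Mtx1 (0.0334), Manbal (0.0822) and Gm49405 (0.0908), at 62.0 to 121 CPM, 8.57 to 17.8 CPM and 5.33 to 10.9 CPM. With 4 embryos such nearness describes these libraries only.

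The sequences upstream of the RefSeq start sites of the 3 members with the lowest folds are shown because these genes had lower values together, and because the study varies a homeodomain factor. Of the 8 members 6 had entries (RefSeq, GRCm38.p6). Each sequence is the 250 bases before a start, 5′ to 3′ on the strand of the gene. Capitals mark matches on either strand to CCAAT (the CCAAT box) or GGGCGG (the GC box); the LIM homeodomain core TAATTA and the TATA box TATAAA were also searched and gave no match.
Rhox5, chrX:37754358-37754607, plus strand: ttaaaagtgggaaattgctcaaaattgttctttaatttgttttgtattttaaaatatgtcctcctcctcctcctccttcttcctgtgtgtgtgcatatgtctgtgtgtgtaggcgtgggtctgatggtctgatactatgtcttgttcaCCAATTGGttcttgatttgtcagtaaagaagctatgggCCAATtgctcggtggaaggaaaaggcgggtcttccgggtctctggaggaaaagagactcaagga
Plac1, upstream start, chrX:53240111-53240360, minus strand: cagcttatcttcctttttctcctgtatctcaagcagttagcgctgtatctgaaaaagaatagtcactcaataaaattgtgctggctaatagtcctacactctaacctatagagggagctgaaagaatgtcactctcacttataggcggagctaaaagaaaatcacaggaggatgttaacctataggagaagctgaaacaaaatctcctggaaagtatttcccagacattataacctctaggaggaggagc
Plac1, downstream start, chrX:53114406-53114655, minus strand: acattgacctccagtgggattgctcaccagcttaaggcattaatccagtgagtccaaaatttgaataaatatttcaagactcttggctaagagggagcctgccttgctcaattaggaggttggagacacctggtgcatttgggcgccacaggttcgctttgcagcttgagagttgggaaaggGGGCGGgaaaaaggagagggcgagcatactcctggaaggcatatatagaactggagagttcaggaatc
Krt7, chr15:101412153-101412402, plus strand: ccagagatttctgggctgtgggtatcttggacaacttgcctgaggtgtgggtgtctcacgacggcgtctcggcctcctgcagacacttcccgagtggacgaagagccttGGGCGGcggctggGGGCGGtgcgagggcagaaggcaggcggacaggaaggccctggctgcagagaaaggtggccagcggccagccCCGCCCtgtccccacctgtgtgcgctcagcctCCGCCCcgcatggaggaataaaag

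The Rhox5 window held 3 CCAAT matches, of which 2 overlap on opposite strands, and no GC box; the Krt7 window held 4 GC boxes and no CCAAT box; the downstream Plac1 window held 1 GC box and the upstream one neither. Over all 32851 such windows, 33.8% held a CCAAT match, 32.7% a GC box, 12.4% a TATA box and 4.84% the homeodomain core. The dinucleotide CG, the target of DNA methylation, occurred 4 times in the Rhox5 window, 2 and 4 times in those of Plac1 and 16 times in that of Krt7, against a median of 6. None of the 4 motifs was found for all 3 genes. The RefSeq start of Rhox5 lies 50234 bases before the start in GENCODE, whose gene model was used for positions and lengths here, and counts per gene do not tell which start was used.

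Genes of trophoblast stem cells and extraembryonic ectoderm, the tissue that maintains itself next to the epiblast, included calls in both directions. Of 16 tested genes Fgfr2, a receptor gene through which FGF keeps these cells dividing, rose and Eomes, a T-box gene of both trophoblast and primitive streak, fell; 14 were not called, and 4 had a fold below 0. Fgfr2 was at 10.9 and 8.10 CPM in FLAG-Lhx1-mt and at 47.4 and 40.2 CPM in FLAG-Lhx1 (log2 fold 2.21 ± 0.20, SE; edgeR gave an adjusted p of 1.42e-05). The level of Eomes ranged from 43.2 to 153 CPM in FLAG-Lhx1-mt and from 9.29 to 13.2 CPM in FLAG-Lhx1 (-3.12 ± 0.40, adjusted p = 0.00039), a fold that shrank to -1.94 when FLAG-Lhx1-mt replicate 2 was left out. Both genes are also expressed in the embryo proper. The list median was 0.51 and was the same without these 2 genes, a step chosen after the values were seen; it includes Esrrb and Wnt7b, which passed the count filter only through the FLAG-Lhx1 embryos, where they are higher. Leaving out FLAG-Lhx1 replicate 2 lowered it to 0.22 and leaving out FLAG-Lhx1-mt replicate 1 to 0.29. Cdx2, which specifies trophoblast, was at 0.457 to 0.914 CPM in the 4 embryos.

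Among genes of later trophoblast Tfap2a alone was called. EdgeR called none of 6 tested genes of the ectoplacental cone, spongiotrophoblast and giant cells, and none had an unadjusted p under 0.05 (median log2 fold 0.086, and -0.24 to 0.19 with 1 embryo left out). The smallest p-values among them were those of the imprinted gene Phlda2 (1521 and 806 CPM in FLAG-Lhx1-mt, 1296 and 1682 CPM in FLAG-Lhx1; log2 fold 0.36 ± 0.23, SE, edgeR adjusted p = 0.404) and of the VEGF receptor gene Flt1 (-0.37 ± 0.28, adjusted p = 0.489). The fold of Phlda2 depended on the FLAG-Lhx1-mt embryos: it was 0.88 without replicate 1 and -0.044 without replicate 2. Of 9 tested genes of the labyrinth and syncytiotrophoblast Tfap2a, which is also a gene of the surface ectoderm, rose from 2.14 and 1.34 CPM to 3.96 and 4.98 CPM (1.37 ± 0.38, adjusted p = 0.0455). The median of the 9 was -0.25 (-0.30 to -0.0094 with 1 embryo left out). The call of Tfap2a was lost when FLAG-Lhx1-mt replicate 2 (1.04) or either FLAG-Lhx1 embryo (1.49 and 1.21) was left out and with the length and GC offsets (1.29). The fusion genes Syna and Synb had at most 8 and 2 counts in an embryo.

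Genes of the visceral endoderm, where Rhox5 is also known to be expressed, mostly had lower values in FLAG-Lhx1 than in FLAG-Lhx1-mt embryos. Of 14 tested genes 6 fell, none rose and 8 were not called, while 3.55% of all tested genes were called as lower. A fold below 0 was found for 13 of the 14, against 49.1% of all tested genes. The median log2 fold was -0.61, and it ran from -0.635 to -0.495 with 1 embryo left out. The largest falls were those of Apoa1 and Apoa4, which encode apolipoproteins. Apoa1 was at 1106 and 999 CPM in FLAG-Lhx1-mt and 420 and 435 CPM in FLAG-Lhx1 (log2 fold -1.30 ± 0.15, SE, edgeR adjusted p = 0.000119), while Apoa4 had a fold of -1.30 ± 0.19 (adjusted p = 0.0012). Apoa4 is uncertain, since 69.8% of its exon bases overlap antisense genes whose reads cannot be told apart without strand. Lgmn, which encodes a lysosomal protease, followed at -0.88 ± 0.16 (adjusted p = 0.00528).

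Summed over the 14 genes, the FLAG-Lhx1-mt embryos were at 4129 and 3484 CPM and the FLAG-Lhx1 embryos at 2099 and 2338 CPM. Apoa1, Rbp4 and Ttr made up most of this sum. Their means were 1053, 941 and 698 CPM in FLAG-Lhx1-mt and 428, 600 and 477 CPM in FLAG-Lhx1. Relative to the FLAG-Lhx1-mt mean, the FLAG-Lhx1 embryos were at 0.551 and 0.614 for this sum, at 0.521 and 0.664 for Rhox5, at 0.579 and 0.583 for Plac1 and at 0.638 and 0.615 for Krt7. The other simple epithelial keratins were at 0.894 and 0.874. The 14 trophoblast stem cell genes other than Eomes and Fgfr2 were at 1.04 and 1.33, with the FLAG-Lhx1-mt embryos at 0.909 and 1.09. Most of that sum came from Ddah1 (mean 33.9 CPM in FLAG-Lhx1-mt and 36.6 CPM in FLAG-Lhx1) and Ets2 (17.9 and 24.4 CPM). Eomes and Fgfr2 were set aside after the values were seen, and this changes the direction of the sum. All 16 genes summed to 122 and 242 CPM in FLAG-Lhx1-mt and 138 and 148 CPM in FLAG-Lhx1, a mean 1.27 times as high in FLAG-Lhx1-mt. The groups overlapped in both sums. The part of visceral endoderm in the values of Rhox5, Plac1 and Krt7 was not tested.

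**Figure D3:**
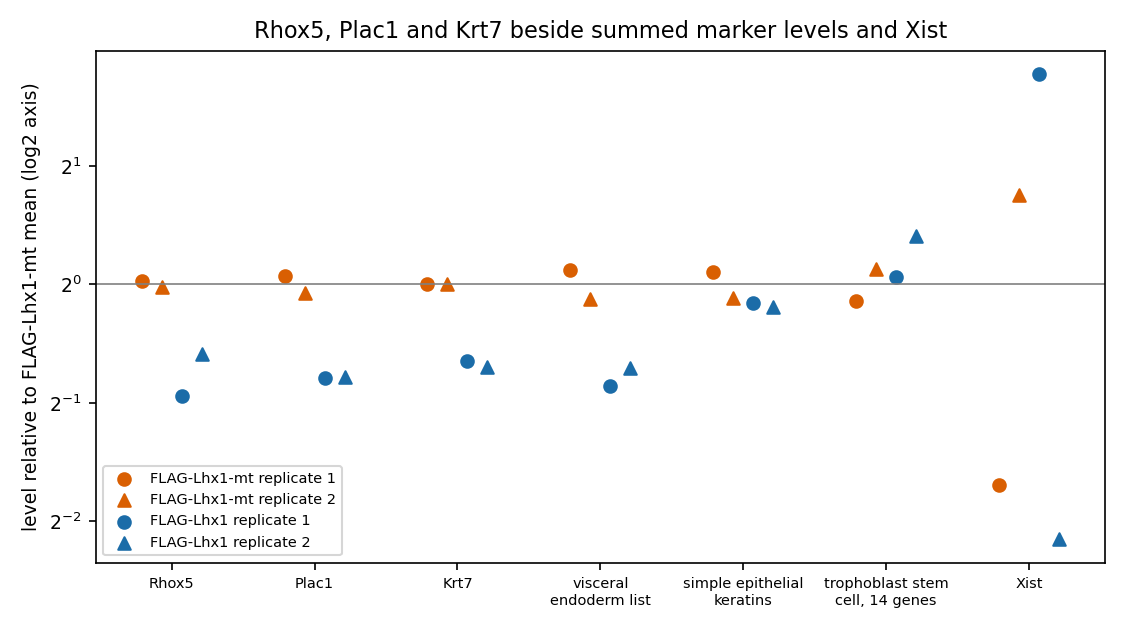
Level in each embryo divided by the mean of the 2 FLAG-Lhx1-mt embryos, on a log2 axis, for Rhox5, Plac1 and Krt7, for summed CPM of 3 marker lists and for Xist; colour marks the group and shape the replicate. The FLAG-Lhx1 embryos lie at 0.521 to 0.664 for Rhox5, Plac1, Krt7 and the visceral endoderm sum. The trophoblast stem cell sum is of 14 genes, without Eomes and Fgfr2, and comes mostly from Ddah1 and Ets2. For it the FLAG-Lhx1 embryos lie at 1.04 and 1.33 and the FLAG-Lhx1-mt embryos at 0.909 and 1.09, so the groups overlap.

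Parietal endoderm, which lines the inside of the trophoblast, was represented by 10 tested genes with a median log2 fold of 0.50 (0.21 to 0.51 with 1 embryo left out). Plat, the tissue plasminogen activator gene, rose from 3.56 and 0.511 CPM to 7.16 and 9.90 CPM (2.11 ± 0.54, SE, edgeR adjusted p = 0.0322), with a fold of 4.04 or 1.24 when FLAG-Lhx1-mt replicate 1 or 2 was left out. DESeq2 did not call it (adjusted p = 0.309). Srgn, a proteoglycan gene that blood cells also express, fell (-1.76 ± 0.28, adjusted p = 0.00194). Sparc, an abundant matrix gene of this tissue, was at 68.7 to 74.7 CPM in all 4 embryos.

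Germ cells are a further known site of Rhox6 and Rhox9. Of 8 tested germ cell genes Pou5f1, also a gene of the epiblast, fell (18.8 ± 1.61 CPM in FLAG-Lhx1-mt and 5.55 ± 0.67 CPM in FLAG-Lhx1, SD, n = 2 each), with a log2 fold of -1.76 ± 0.23 (SE; edgeR gave an adjusted p of 0.000487), 7 were not called, and the median was -0.22 (-0.46 to 0.032 with 1 embryo left out). Dppa3, a germ cell marker, had 4 to 10 counts per embryo.

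Rhox genes and germline genes are known to be silenced by DNA methylation in the epiblast. Of 12 tested DNA methyltransferase and germline genes Dnmt3b and Asz1 fell and none rose. Dnmt3b, the main de novo methyltransferase gene of the epiblast, was at 520 and 710 CPM in FLAG-Lhx1-mt and 363 and 257 CPM in FLAG-Lhx1 (-0.99 ± 0.19, SE, edgeR adjusted p = 0.00607). Asz1, a germline gene, had 18 and 14 counts in FLAG-Lhx1-mt and 1 and 0 in FLAG-Lhx1, a pooled rate 26.9 times as high in FLAG-Lhx1-mt (exact Clopper-Pearson 95% interval 4.49 to 1095). It entered the test through the FLAG-Lhx1-mt embryos, in which it is higher, so its call supports nothing by itself. Leaving out FLAG-Lhx1-mt replicate 1 or either FLAG-Lhx1 embryo ended the call, with fitted folds of -4.11, -6.92 and -3.82 against -4.52, and DESeq2 gave no adjusted p. Dnmt1 and Dnmt3a were not called, and the median of the list was -0.16 (-0.28 to -0.058 with 1 embryo left out).

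Rhox5, Rhox6, Rhox9 and Plac1 are X-linked, so the sex chromosome content of the embryos was examined. Xist, the RNA of the inactive X, was at 2.66 and 14.5 CPM in the FLAG-Lhx1-mt embryos, in order of replicate, and at 29.4 and 1.93 CPM in the FLAG-Lhx1 embryos. It was thus high in 1 embryo of each group, and the part of sex chromosome content in the values of the X-linked members was not tested. The Y-linked gene Eif2s3y was at 15.8, 4.28, 2.78 and 14.4 CPM in the same order, and so was present in every embryo. The Y-linked genes did not all follow it. Kdm5d (1.76, 0.128, 0.267 and 1.68 CPM) was low in the same embryos as Eif2s3y. Ddx3y (18.6, 2.90, 12.9 and 14.7 CPM) was low in FLAG-Lhx1-mt replicate 2 but not in FLAG-Lhx1 replicate 1, where Xist was highest. Uty was at 4.46, 1.69, 2.97 and 4.62 CPM. EdgeR called none of the 8 tested X inactivation and Y-linked genes, and 1 had an unadjusted p under 0.05; the smallest p-values were those of Ftx (-0.55 ± 0.23, SE, edgeR adjusted p = 0.185) and Xist (0.86 ± 0.75, adjusted p = 0.561). Their list median ran from -0.99 to 0.60 with 1 embryo left out, and the fold of Xist from -2.20 to 2.57. With no count filter Xist was called (log2 fold 0.80, edgeR adjusted p = 0.0331). That fit did not use a gene's own spread between embryos, which for Xist was 29.4 against 1.93 CPM within FLAG-Lhx1. Of 593 tested genes on the X chromosome 40 (6.75%) were called, 16 as lower, against 6.17% of all tested genes called. The median log2 fold of the 593 was 0.070.

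As a check on the tissue, 10 genes of the embryonic ectoderm and mesoderm were taken beside the members. Hesx1, a forebrain gene, rose (13.2 and 23.2 CPM against 135 and 120 CPM; log2 fold 2.80 ± 0.22, SE, edgeR adjusted p = 2.78e-06), as did Sox2 (1.05 ± 0.23, adjusted p = 0.0144; 0.75 and not called when FLAG-Lhx1 replicate 1 was left out). Mesp1, an early mesoderm gene, fell by 1.47 ± 0.19 on the log2 scale (edgeR adjusted p = 0.000404), and T fell by 0.70 (adjusted p = 0.0481), a call lost with upper-quartile normalization, with the length and GC offsets and when FLAG-Lhx1 replicate 2 was left out. The summed level of the 10 genes was 390 and 349 CPM in FLAG-Lhx1-mt and 409 and 342 CPM in FLAG-Lhx1, so that the groups overlapped.

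**Figure D4:**
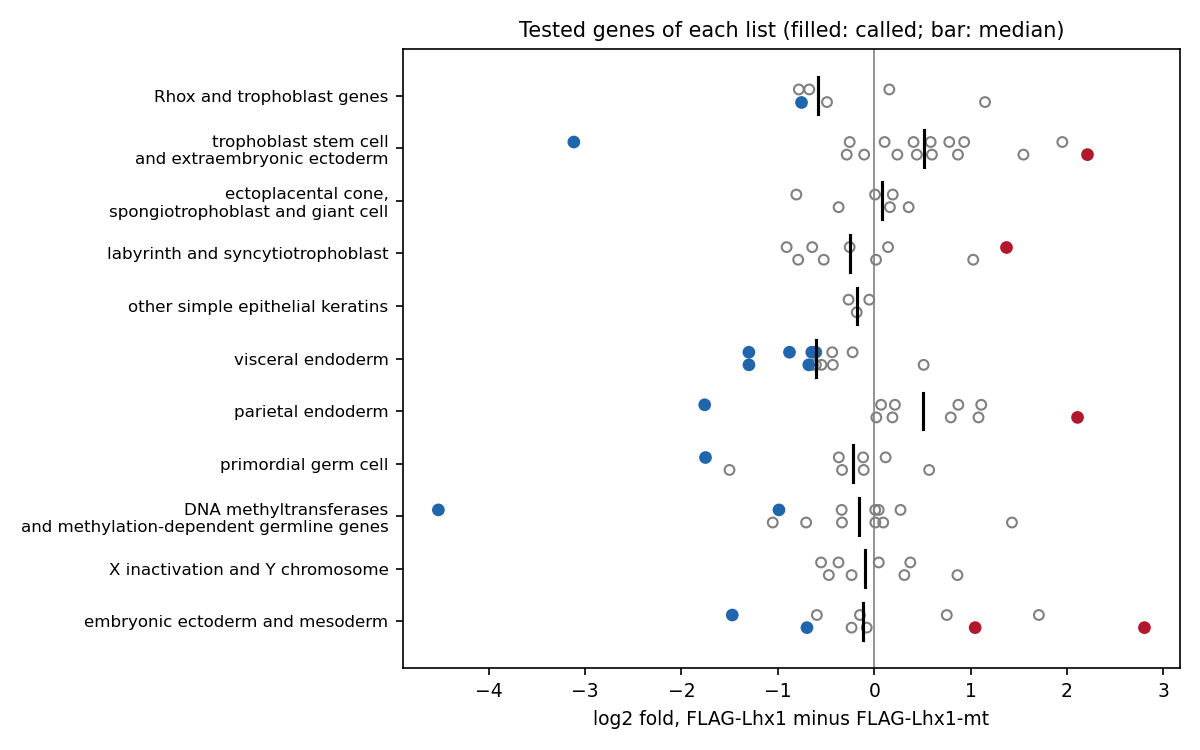
Log2 fold of every tested gene of the 8-gene set and of the 10 other lists with tested genes (the remaining Rhox cluster had none); filled points are called at an adjusted p under 0.05, red higher and blue lower in FLAG-Lhx1, and the bar is the list median. The medians are -0.58 for the set, -0.61 for visceral endoderm and 0.51 for trophoblast stem cells.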

How the data were processed

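RNA of 4 single embryos was made into Geo-seq libraries with 10 cycles of pre-amplification and 0.5 ng of cDNA for Nextera XT, read as 100 bp paired ends, per the labels' protocols. The authors deposited raw read counts per Ensembl gene; STAR and featureCounts of Subread and the builds GRCm38 and mm10 are named in the submitters' processing notes, while the sources used here give no versions, annotation release or strand option. Symbols, positions and lengths came from GENCODE vM21 (GRCm38), which holds 96.2% of the 39179 IDs.

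The 8 members and the 11 gene lists were chosen with earlier results of these data known; 1 listed gene, Rhox3b, was not matched. Named genes are the members, up to 3 called genes per list by p, or the 2 smallest p where none was called, Rhox genes with at least 10 counts, and the 3 profiles nearest to the most abundant member; others, such as T, Otx2, Krt8, Cdx2, Plac8, Hand1, Esrrb, Wnt7b, Sparc and Eif2s3y, were added after values were seen. Counts were filtered with filterByExpr (minimum count 10, total 15), scaled by TMM and compared in edgeR 4.0.16 (R 4.3.3; quasi-likelihood F test, group only) over all genes. SE is the absolute log2 fold divided by the root of F. With 2 residual and 13.4 prior degrees of freedom, p-values measure the spread of 2 embryos a group, with a variance mostly borrowed from other genes; an exact permutation test of 2 against 2 cannot go below 0.333. The procedure was also run on counts simulated from its own fitted model, without gene-specific spread, which checks the code and not the error rate here. Elf5, Esrrb, Wnt7b, Pappa2, Nanos3 and Asz1 passed the filter through 1 group only. No pair of libraries agreed within sampling noise (chi-square per degree of freedom 26.8 to 101). Alternatives included DESeq2 1.42.0 and limma 3.58.1 (voom).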

Additional observations from a re-analysis of the deposited data

How the results depend on the processing

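Of 78 values of the 6 tested members under 13 alternatives, 71 kept the direction and the side of the threshold. The fold of Rhox5 ranged from -0.93 to -0.62 with 1 embryo left out, where the lone embryo of the group is assumed to vary like the other group, and its call was lost only without FLAG-Lhx1 replicate 1 (adjusted p = 0.0822). Plac1 passed with RLE size factors (-0.79), DESeq2 (-0.79), the newer quasi-likelihood form (-0.78) and no count filter (-0.84), and ranged from -0.86 to -0.72 with 1 embryo left out. The no-filter fit did not use a gene's own spread between embryos. Ascl2 turned to -0.22 without FLAG-Lhx1-mt replicate 2 and reached 0.60 without FLAG-Lhx1-mt replicate 1. The number of called genes, 976, ranged from 521 to 1648 with 1 embryo left out. Upper-quartile normalization made 54.4% of the calls higher, against 42.5% with TMM, no count filter 34.2% and the length and GC offsets 34.3%; the members kept their directions in each. With the replicate number as a block 1138 genes were called, or 973 with the length and GC offsets, and no member changed its call; same-numbered embryos did not deviate together (correlation 0.0156), so the block has no basis in these data. Of 131 list medians, 30 moved by more than the spread between embryos. Depth limits Elf5, Rhox9 and Gcm1, none of which had more than 16 counts in an embryo.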
